A study of Mus musculus with 8 samples.

Results

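The 10 genes described here are Zfp503, Thsd4, Greb1l, Mbp, Aqp3, Ap3b2, 2510009E07Rik, Fgfbp3, Nuak1, and Mpst, which were chosen because their read counts rose strongly while E14 mouse embryonic stem cells (ESCs) were moved from serum to 2i. They are 10 of the 37263 genes in the count tables, and each was found by its Ensembl identifier. The rises that chose them, between 4 hr and 24 or 32 hr or between 16 and 32 hr, are therefore given as values without a test. All 10 genes were among the 14931 genes with a scaled level of at least 1 CPM (counts relative to the library total) in 2 or more libraries, although Zfp503 was below 1 CPM in both 4 hr libraries and passed through the later times.

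E14 is an ESC line that grows without feeder cells. It was kept with LIF in DMEM and fetal calf serum, and then transferred to serum-free medium with LIF and the inhibitors PD0325901 (against MEK) and CHIR99021 (against GSK3), called 2i. A parallel course received 17 µM vitamin C (vitC) in the same medium. RNA depleted of ribosomal RNA was sequenced at 4, 16, 24, and 32 hr, with 1 library for each time and treatment, so that all 8 libraries shared the line, LIF, and both inhibitors, and no culture was replicated. Serum cells were not analysed here, and the 4 hr libraries are the earliest reference.

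The deposited reads counted on genes totalled 12940716 to 18434932 in the 2i libraries and 4753528 to 13157570 in the vitC libraries. The vitC libraries at 16 and 24 hr were the shallowest. The file names place 4 and 24 hr on one sequencing lane and 16 and 32 hr on another, with both treatments of a time together. Ratios of 24 to 4 hr and of 32 to 16 hr thus stay within a lane, while lane and time cannot be told apart in the ratios of 16 or 32 hr to 4 hr, nor in those of 24 to 16 hr and 32 to 24 hr. The share of reads on Lars2, Gm23935, and ENSMUSG00000093077 lay between 0.0277% and 5.92% in 2i and between 0.0113% and 7.11% with vitC, and was lowest in both 4 hr libraries. The 10 markers of ESCs summed to 1977 to 2447 CPM in 2i and 2067 to 2611 CPM with vitC, with Pou5f1, Nanog, and Sox2 abundant in every library. They did not move together. Pou5f1, Zfp42, and Utf1 were lower at 32 than at 4 hr in both treatments. For Utf1 this was from 19.0 to 2.08 CPM in 2i and from 14.4 to 1.84 CPM with vitC. Sox2, Esrrb, Klf4, Klf2, and Tfcp2l1 were higher in both, and Nanog and Tdgf1 were higher in 2i and lower with vitC.

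In 2i, the block on MEK removes the signal that FGF4 sends through ERK to prime ESCs for differentiation, and the block on GSK3 stabilizes beta-catenin and relieves the repression by TCF7L1 of genes of naive pluripotency. VitC is a cofactor for TET enzymes and other dioxygenases that use iron and 2-oxoglutarate, and TET enzymes oxidize 5-methylcytosine. The 10 genes were not chosen for a common function. They encode a zinc-finger repressor (Zfp503), a relative of the estrogen-induced coactivator GREB1 (Greb1l), secreted proteins of the extracellular matrix and FGF signaling (Thsd4, Fgfbp3), a water and glycerol channel (Aqp3), an adaptor of vesicle transport (Ap3b2), a myelin protein (Mbp), a kinase (Nuak1), a sulfur-transferring enzyme (Mpst), and 2510009E07Rik.

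The courses separated into an early and a late pattern. A gene was called early when at least 50% of its log2 rise from 4 to 32 hr in 2i had been reached at 16 hr, and late otherwise. By this description 8 genes were early and 2, Nuak1 and Mpst, were late. The same 8 and 2 resulted in the vitC libraries, and also with the highest of 24 and 32 hr as the end point. In 2i that end point differed from 32 hr only for 2510009E07Rik, so it could hardly change a class.

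**Figure D1:**
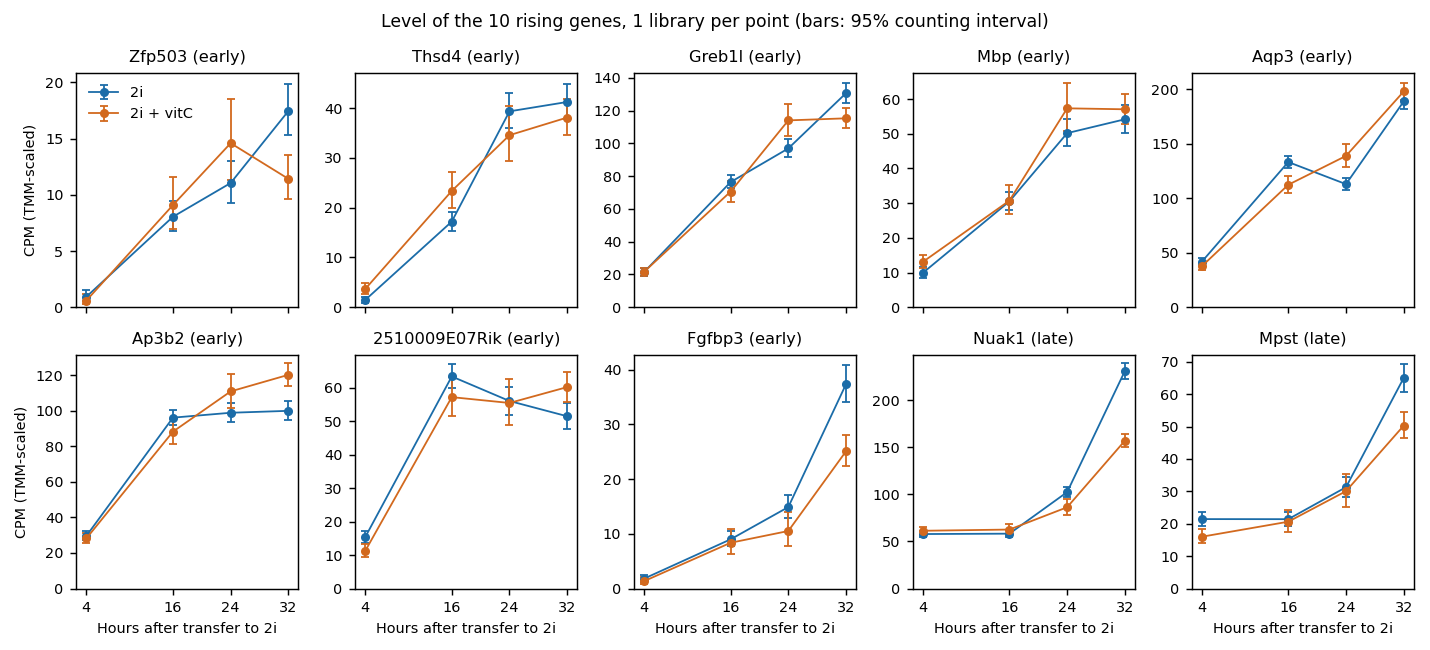
Level of each of the 10 genes in CPM (linear axis from 0, with its own scale for each gene) against hours after transfer (4, 16, 24, and 32 hr), in 2i and in 2i with vitC, with 1 library per point and bars for the 95% interval of the count alone. In 2i Nuak1 and Mpst stay near their 4 hr level at 16 hr and rise afterwards, with Mpst already 1.29-fold up at 16 hr with vitC, while the other genes have risen by 16 hr.

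Nuak1 (ENSMUSG00000020032) encodes a kinase of the AMPK-related family that is activated by LKB1. In 2i it was counted at 57.9 CPM at 4 hr, 58.3 CPM at 16 hr, 102.4 CPM at 24 hr, and 231 CPM at 32 hr. With vitC the levels were 61.3, 62.6, 86.3, and 157 CPM at the same times. The 4 and 16 hr libraries did not differ beyond counting error in either treatment, with a ratio of 16 to 4 hr in 2i of 1.01 (95% interval of the counts 0.923 to 1.10), and the 32 hr library was the highest. The ratio of 32 to 16 hr, within a lane, was 3.96 in 2i (3.70 to 4.25) and 2.51 with vitC (2.26 to 2.79). All such intervals hold for counting error alone, because PCR copies were not marked by identifiers and no culture was replicated.

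Mpst (ENSMUSG00000071711) encodes 3-mercaptopyruvate sulfurtransferase, an enzyme of cysteine breakdown that can yield hydrogen sulfide. Its levels in 2i were 21.4 CPM at both 4 and 16 hr, 31.3 CPM at 24 hr, and 65.0 CPM at 32 hr. With vitC they were 16.0, 20.6, 30.1, and 50.3 CPM. In 2i the shape was that of Nuak1 at a lower level, with a ratio of 16 to 4 hr of 0.999 (0.865 to 1.15). With vitC Mpst was already higher at 16 hr, with a ratio of 1.29 (1.04 to 1.60). Between 16 and 32 hr it increased 3.04-fold in 2i (2.70 to 3.42) and 2.44-fold with vitC (2.03 to 2.95).

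Both late genes were higher at 32 hr than at 24 hr. From 24 to 32 hr Nuak1 went up 2.26-fold in 2i (2.11 to 2.41) and Mpst 2.08-fold (1.84 to 2.35). Their 32 hr libraries were on another lane than those at 24 hr, so that lane and time cannot be told apart in this step. At 24 hr in 2i, Nuak1 had covered 41.2% and Mpst 34.1% of the log2 rise. With vitC the shares of Nuak1 and Mpst were 2.21% and 22.3% at 16 hr, and 36.4% and 55.1% at 24 hr. In the 8 libraries the 2 genes were closer to each other than either was to any of 13127 other protein-coding genes, with a Euclidean distance of 0.48 between their centred log2 CPM. The nearest other genes were Tnc, which encodes the matrix protein tenascin C, for Nuak1 (distance 0.78) and Angpt1, which encodes a ligand of the TIE2 receptor, for Mpst (distance 0.68). These distances describe the 8 libraries and carry no test.

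The stretches directly upstream of the RefSeq starts of both late genes are shown with those of Zfp503 and Ap3b2, the 2 early genes in which a searched motif was found. Each is 250 bases long and ends at the base before the start (RefSeq, GRCm38.p6). Capitals mark a motif match, CTTTGAA on the reverse strand in Zfp503 and TTCCNGGAA in Ap3b2.
Nuak1, chr10:84440669-84440918, minus strand: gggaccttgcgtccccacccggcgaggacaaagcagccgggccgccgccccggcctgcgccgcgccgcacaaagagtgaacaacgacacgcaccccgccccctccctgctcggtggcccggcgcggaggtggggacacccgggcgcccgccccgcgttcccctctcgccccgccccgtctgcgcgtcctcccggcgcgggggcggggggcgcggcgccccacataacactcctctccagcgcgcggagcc
Mpst, chr15:78406462-78406711, plus strand: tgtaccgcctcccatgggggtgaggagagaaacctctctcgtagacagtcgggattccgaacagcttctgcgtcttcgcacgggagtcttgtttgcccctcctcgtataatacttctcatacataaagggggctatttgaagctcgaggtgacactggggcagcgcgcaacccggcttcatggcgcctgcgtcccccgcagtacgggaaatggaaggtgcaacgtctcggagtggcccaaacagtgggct
Zfp503, chr14:21989602-21989851, minus strand: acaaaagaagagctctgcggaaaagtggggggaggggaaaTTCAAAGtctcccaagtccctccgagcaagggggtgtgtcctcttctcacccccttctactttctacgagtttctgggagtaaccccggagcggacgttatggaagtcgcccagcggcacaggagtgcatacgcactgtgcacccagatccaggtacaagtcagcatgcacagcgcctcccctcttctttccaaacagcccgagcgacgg
Ap3b2, chr7:81493926-81494175, minus strand: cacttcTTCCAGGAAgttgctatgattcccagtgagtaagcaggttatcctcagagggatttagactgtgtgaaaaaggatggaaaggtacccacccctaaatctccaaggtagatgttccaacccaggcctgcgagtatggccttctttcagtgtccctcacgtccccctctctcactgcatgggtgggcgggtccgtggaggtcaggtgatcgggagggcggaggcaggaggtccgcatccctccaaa
Windows were found for 8 of the 10 genes, with 11 windows in all, as Thsd4 has 2 and Mpst 3. Mbp and Greb1l are named only. Searched on both strands among 32851 windows of this length, CTTTGAA, a form of the TCF/LEF motif, was in 4.46% of windows and in 1 of the 8 genes, Zfp503, where it begins 210 bases before the start. TTCCNGGAA, the STAT motif, was in 0.913% of windows and in 1 gene, Ap3b2, 244 bases before the start. CTTTGAT, the other form of the TCF/LEF motif (3.21% of all windows), the ESRRB motif TCAAGGTCA (0.387%), the ETS motif CCGGAAG (6.91%), the E-box CACGTG (6.02%), and the KLF motif GGGTGTGG (3.2%) were in none of the 11 windows. No motif was shared between genes, or between Nuak1 and Mpst. The 2 late genes differed in base composition, with 79.2% G and C and 38 CpG dinucleotides upstream of Nuak1 and 58% and 18 in the first Mpst window, against medians of 52.4% and 6 over all windows.

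Among the early genes, 2 encode regulators of transcription. Zfp503 (ENSMUSG00000039081), a repressor of the NET zinc-finger family, was at 0.932 CPM at 4 hr in 2i, which was 16 counts, and then at 8.05, 11.1, and 17.5 CPM at 16, 24, and 32 hr. With vitC it went from 0.598 CPM (8 counts) to 9.09, 14.6, and 11.4 CPM. The low counts at 4 hr left wide intervals, with a ratio of 32 to 4 hr of 18.7 in 2i (11.3 to 33.3) and 19.1 with vitC (9.43 to 45.2). In 2i the highest library was at 32 hr, but with vitC it was at 24 hr, and the ratio of 32 to 24 hr was 1.58 in 2i (1.28 to 1.96) and 0.783 with vitC (0.581 to 1.06).

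Greb1l (ENSMUSG00000042942), a gene needed for kidney development, rose at each step in 2i, through 21.4, 76.4, 96.9, and 131 CPM. With vitC it passed through 21.6, 70.6, 114, and 115 CPM, with 24 and 32 hr at the same height. The ratio of 24 to 4 hr was 4.52 in 2i (4.02 to 5.09) and 5.28 with vitC (4.57 to 6.12).

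Thsd4 (ENSMUSG00000032289) and Fgfbp3 (ENSMUSG00000047632) encode secreted proteins and had the largest ratios of 32 to 4 hr of the 10 genes in 2i. Thsd4, also called ADAMTSL6, promotes the assembly of fibrillin microfibrils, and was at 1.46, 17.2, 39.4, and 41.2 CPM in 2i. With vitC its levels were 3.66, 23.4, 34.6, and 38.1 CPM. In 2i most of the rise lay before 24 hr, and 24 and 32 hr differed by less than counting error (ratio 1.05, 0.927 to 1.18). Its ratio of 32 to 4 hr was 28.3 in 2i (19.0 to 44.1), the ninth highest among all 14931 genes, but 10.4 with vitC (7.74 to 14.3), where the 4 hr level was higher.

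Fgfbp3, which binds FGFs outside the cell, lay closest to the boundary between early and late in 2i. Its 2i levels were 1.81, 9.0, 14.9, and 37.4 CPM, and with vitC it was at 1.34, 8.37, 10.5, and 25.1 CPM. With vitC Mbp lay closest, with 58.0% of the log2 rise reached at 16 hr. For Fgfbp3 the share at 16 hr was 53.0% in 2i and 62.5% with vitC. Its 32 hr level was well above that at 24 hr, across the change of lane, with ratios of 32 to 24 hr of 2.51 in 2i (2.12 to 2.98) and 2.39 with vitC (1.76 to 3.30), like those of Nuak1 and Mpst. From 4 to 32 hr it increased 20.7-fold in 2i (14.4 to 30.8).

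Mbp (ENSMUSG00000041607) encodes the main basic protein of myelin, and its locus also makes golli transcripts in cells without myelin. It was at 9.90, 30.5, 50.2, and 54.2 CPM in 2i and at 13.1, 30.7, 57.3, and 57.1 CPM with vitC. In neither treatment did 24 and 32 hr differ by more than counting error. Gene counts do not separate golli from myelin transcripts. Of 8 markers of oligodendrocytes, Olig2 was at 0 counts in all 8 libraries and Olig1 had at most 3, while the summed list lay between 22.2 and 45.2 CPM in 2i and between 21.1 and 46.2 CPM with vitC, lowest at 4 hr in both and mainly from Cnp and Mobp. The part of such cells in the level of Mbp was not tested. In bulk RNA, more cells that express a gene and more RNA per cell cannot be told apart.

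Aqp3 (ENSMUSG00000028435), the water and glycerol channel, was the only one of the 8 early genes that dipped between 16 and 24 hr and then rose in 2i, with 41.6, 133, 113, and 189 CPM. The 24 hr library was on another lane than those at 16 and 32 hr, so that lane and time cannot be told apart in this dip. With vitC it rose at each step, through 37.5, 112, 139, and 198 CPM. Ap3b2 (ENSMUSG00000062444), the beta subunit of the AP-3 adaptor in neurons, was at 29.5 CPM at 4 hr in 2i and then level at 96.0, 98.8, and 99.9 CPM. With vitC it continued upward, from 28.2 to 88.2, 111, and 120.1 CPM. The ratio of 32 to 16 hr of Ap3b2 was 1.04 in 2i (0.968 to 1.12) and 1.36 with vitC (1.24 to 1.5).

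2510009E07Rik (ENSMUSG00000043391) was the earliest of all, and the only gene that was highest at 16 hr in 2i, with 15.3, 63.3, 56.0, and 51.4 CPM. The fall from 16 to 32 hr was to 0.812 of the 16 hr level (0.739 to 0.893). With vitC the 3 later levels were close together, at 57.1, 55.4, and 60.1 CPM after 11.2 CPM at 4 hr.

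**Figure D2:**
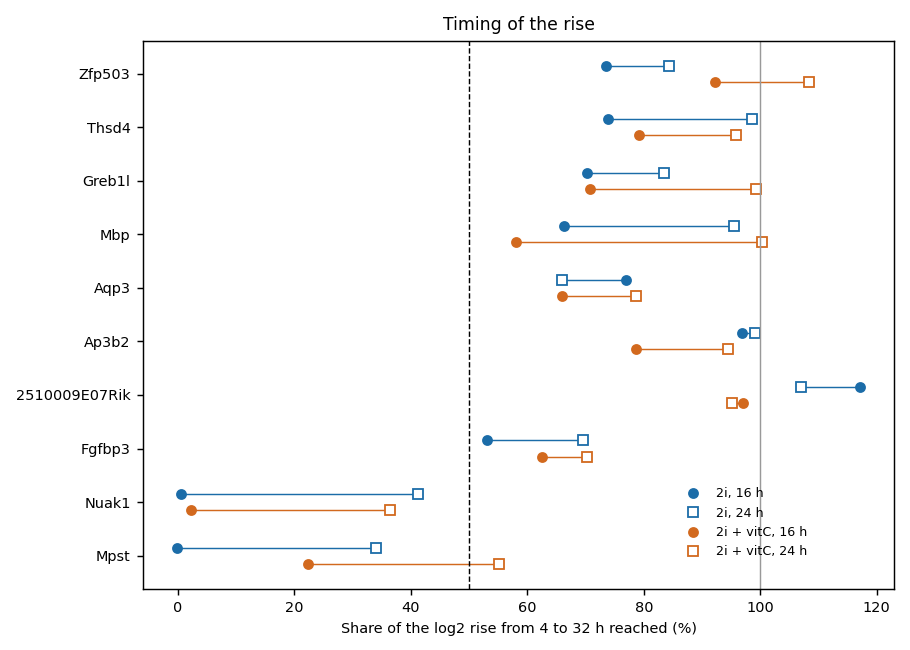
Share of the log2 rise from 4 to 32 hr (percent, horizontal axis) that each gene had reached at 16 hr (filled circles) and 24 hr (open squares), in 2i and with vitC, with the dashed line at 50%. In 2i the 16 hr share is 0.50% for Nuak1 and -0.0930% for Mpst, 53.0% for Fgfbp3, and 117% for 2510009E07Rik.

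Relative to all genes, a ratio of at least 4 (log2 of 2) was held by 4 of the 10 genes at 16 against 4 hr in 2i (1.07% of all genes tested), by 5 at 24 against 4 hr (1.19%), by 6 at 32 against 4 hr (1.82%), and by 1, Fgfbp3, at 32 against 16 hr (0.683%). With vitC the counts were 4 (1.81%), 6 (2.75%), 8 (2.35%), and 0 (0.529%). Since the genes were chosen on these ratios, the counts only describe the choice. By the ratio of 32 to 4 hr in 2i the genes ranked from 9 for Thsd4 to 506 for Mpst among 14931, so that many genes outside the group rose as much.

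Compared per length (RPKM, with merged exon lengths of GENCODE M21), the levels at 32 hr in 2i ran from 103 for Aqp3 through 41.1 for Nuak1, 30.3 for Mpst, 21.1 for Fgfbp3, 15.9 for Ap3b2, 11.9 for Greb1l, 7.83 for 2510009E07Rik, 6.40 for Mbp, and 4.14 for Zfp503 to 2.95 for Thsd4. Thsd4, with the largest ratio, was thus the least abundant of the 10 in that library, and Aqp3 the most abundant in every library. With 1 library per point, no spread between cultures is available for this order. No other gene of the count tables shares annotated exon bases with any of the 10.

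The effect of vitC, which was not used to choose the genes, was tested in edgeR's quasi-likelihood model with time as a block and Benjamini-Hochberg adjustment over all 14931 genes. None of the 10 genes passed, against 25 of all genes (0.167%), and 1 of the 10, Fgfbp3, had an unadjusted p-value under 0.05 (13.8% of all genes). DESeq2 also called 0 of the 10. The log2 fold changes for vitC against 2i lay between -0.41 and 0.23, with standard errors of 0.10 to 0.23 and adjusted p-values of 0.31 to 0.99, so that modest effects of either sign are not excluded by these data. The error in this model comes from the departure of the courses from parallel on 3 residual degrees of freedom. It is moderated toward a trend over all genes, and is not a spread between cultures.

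Fgfbp3 had the largest effect, -0.41 on the log2 scale (standard error 0.17, edgeR unadjusted p = 0.034 and adjusted p = 0.31). It was lower with vitC at 4 of 4 times, with ratios of vitC to 2i of 0.745 at 4 hr (0.392 to 1.37), 0.930 at 16 hr (0.678 to 1.26), 0.706 at 24 hr (0.505 to 0.971), and 0.672 at 32 hr (0.580 to 0.776). Mpst was also lower at 4 of 4 times, with ratios of 0.746, 0.963, 0.961, and 0.774 and an estimate of -0.23 on the log2 scale (edgeR adjusted p = 0.45). Of all genes tested, 10.7% were lower at all 4 times, which compares with these 2 of the 10. Mbp was the only one with a ratio above 1 at every time, from 1.01 at 16 hr to 1.32 at 4 hr, and its log2 fold change was 0.16 (adjusted p = 0.59, edgeR).

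The ratios at single times have no test, and their intervals can be read only against those of all genes. At 32 hr both late genes were lower with vitC, with ratios of 0.680 for Nuak1 (0.642 to 0.720) and 0.774 for Mpst (0.696 to 0.859). The early genes Fgfbp3, Zfp503 (0.654, 0.526 to 0.811), and Greb1l (0.882, 0.822 to 0.947) also had intervals below 1 at that time, while those of Ap3b2 (1.20, 1.12 to 1.30) and 2510009E07Rik (1.17, 1.05 to 1.30) were above it. These are 5 and 2 of the 10, next to 22.5% and 22.9% of all genes with an interval below or above 1 at 32 hr. At 24 hr 2 genes were below (18.6% of all genes) and 3 above (20.2%). At 16 hr 1 was below (25.7%) and 1 above (23.4%), and at 4 hr 2 were below (21%) and 2 above (22.2%).

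Nuak1 went from ratios of 1.06 at 4 hr and 1.07 at 16 hr to 0.843 at 24 hr and 0.680 at 32 hr, so that the late rise was smaller with vitC in these libraries. Thsd4 also moved downward, from 2.51 at 4 hr (1.52 to 4.25) and 1.36 at 16 hr (1.12 to 1.64) to 0.878 at 24 hr and 0.924 at 32 hr. 2510009E07Rik moved upward, through 0.731, 0.903, 0.990, and 1.17. A test of a linear change of the vitC effect with hours called none of the 10 genes and none of all 14931 (0%), with 431 of all genes (2.89%) and 1 of the 10 at an unadjusted p-value under 0.05. DESeq2 called 0 of the 10 in the same test. The slope per hour on the log2 scale was -0.051 for Thsd4 (standard error 0.016), the gene at an unadjusted p-value under 0.05, -0.024 for Nuak1 (0.011), and 0.024 for 2510009E07Rik (0.011), all with an adjusted p of 1.00 in edgeR. Thsd4 had its lowest counts at 4 hr, 25 in 2i and 49 with vitC.

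**Figure D3:**
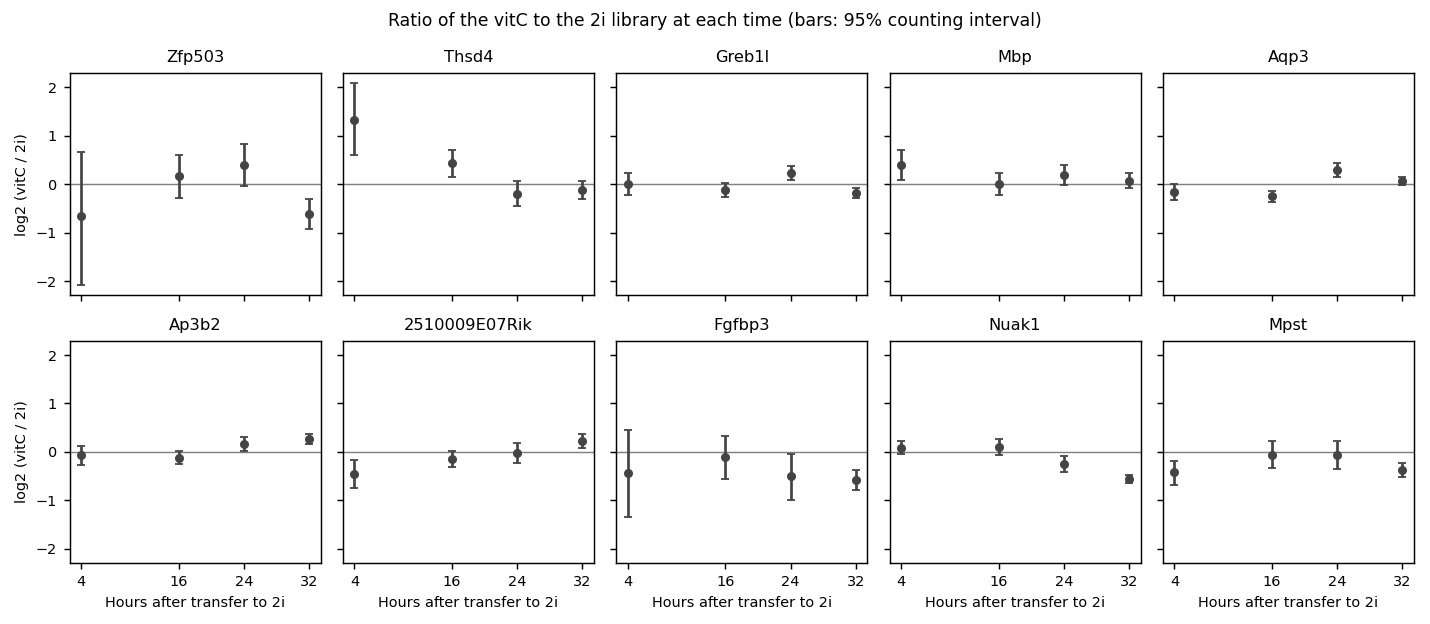
Ratio of the vitC to the 2i library (log2 axis, 0 is no difference) at each time for each of the 10 genes, with 1 library per treatment and time and bars for the 95% interval of the counts alone. Fgfbp3 and Mpst lie below 0 at all 4 times and Mbp above it, and Nuak1 falls from 1.06 to 0.680 as a ratio.

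For each early gene, the genes whose centred log2 CPM was closest over the 8 libraries were listed in the same way. Greb1l was nearest to Mobp, another myelin gene (distance 0.36), and to Rec8, which encodes a cohesin subunit of meiosis (0.44). Mobp was also the second nearest of Mbp (0.39), after Dmgdh, a mitochondrial enzyme of choline breakdown (0.27). Ap3b2 and 2510009E07Rik each had a fatty acid desaturase among their nearest genes, Fads1 for Ap3b2 (0.28) and Fads2 for 2510009E07Rik (0.61), next to Col4a6 (0.37) and the homeobox gene Esx1 (0.58).

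Aqp3 was followed most closely by Kctd1 (0.31) and M1ap (0.36). For the steep genes, the nearest were the zinc-finger gene Zfp521 for Zfp503 (1.03) and the delta opioid receptor gene Oprd1 for Thsd4 (1.08). For Fgfbp3 it was Ptn, which encodes the growth factor pleiotrophin (0.93). The Pearson correlations of log2 CPM in these pairs were 0.989, 0.985, and 0.979. Distances grow with the size of the rise, so they rank neighbours of 1 gene and do not compare genes.

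Relatives and pathway partners of the 10 genes, whose values the choice did not use, were tested for time with time and treatment as additive factors (edgeR's quasi-likelihood test, Benjamini-Hochberg adjustment over all genes). Each fold change from this model is an average over 2i and vitC. The lists themselves were drawn up with earlier results of these data known, so the calls are not blind to these data. Of 88 listed symbols 63 passed the filter on low counts. No counts were found under the symbols Sqrdl and Tstd1, and the others not tested were below the filter. Between 4 and 24 hr 9 rose (11.5% of all genes tested rose) and 2 fell (8.98% fell), and 52 did not pass. The median log2 fold change of the 63 was 0.29 and that of all genes 0.01. Between 16 and 32 hr 0 rose (0.335%) and 1 fell (0.248%), with 6 and 6 at an unadjusted p-value under 0.05, and DESeq2 called 1 higher and 1 lower.

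The closest relatives of the 2 transcription regulators both rose from 4 to 24 hr. Zfp703, the other NET-family gene, rose by 3.29 on the log2 scale (standard error 0.53, edgeR adjusted p = 0.0016), and Greb1 by 1.35 (0.32, adjusted p = 0.012, edgeR). Both rises were larger with vitC. From 4 to 24 hr Zfp703 went from 2.33 to 8.55 CPM in 2i and from 1.05 to 35.4 CPM with vitC. At 32 hr, on the other lane, Zfp703 was at 4.31 CPM in 2i and 10.7 CPM with vitC. Greb1 went from 6.47 to 10.98 CPM in 2i and from 3.36 to 14.6 CPM with vitC between 4 and 24 hr. Among the myelin genes besides Mbp, Mobp rose by 2.28 (0.23, adjusted p = 9.5e-05, edgeR) and Cnp, Mal, Pmp22, and Sox10 did not pass. Among 12 genes of microfibrils and thrombospondin repeats, Fbn2, which encodes fibrillin 2, rose by 2.10 (0.24, adjusted p = 0.00018, edgeR), whereas Fbn1 was at 0.13 (adjusted p = 0.64).

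Of the 6 other AP-3 subunits, Ap3b1, the beta subunit of most tissues, rose by 0.90 (0.13, adjusted p = 0.0010, edgeR), and the other 5 did not pass. Of 15 kinases related to AMPK or acting on them, 3 rose, Sik1 by 1.52 (0.20, adjusted p = 0.00041), Mark4 by 1.41 (0.33, adjusted p = 0.010), and Prkaa2, a catalytic subunit of AMPK, by 1.14 (0.19, adjusted p = 0.0017, all edgeR). The rises of all 3 were larger with vitC. From 4 to 24 hr in 2i, Sik1 went from 32.0 to 66.4 CPM, Mark4 from 9.32 to 14.5, and Prkaa2 from 12.6 to 25.2. With vitC they went from 34.8 to 140 CPM, from 7.10 to 35.2, and from 16.3 to 39.7. Nuak2, the closest relative of Nuak1, had a log2 fold change of 0.02 between 4 and 24 hr and 0.73 between 16 and 32 hr (standard error 0.23, adjusted p = 0.18, edgeR), and Stk11, the gene of LKB1, of -0.34 and 0.12 (adjusted p = 0.10 and 0.74). Of 10 aquaporin genes besides Aqp3, Aqp11 alone passed the filter, at 1.26 between 4 and 24 hr (adjusted p = 0.069, edgeR).

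Of 8 genes of sulfur metabolism tested, Cth, which encodes cystathionine gamma-lyase, another source of hydrogen sulfide, fell by 1.11 on the log2 scale between 4 and 24 hr (standard error 0.21, adjusted p = 0.0031, edgeR), and the other 7 did not pass. Of 13 FGF ligands, receptors, and binding proteins, Fgfr1 rose by 0.60 from 4 to 24 hr (0.17, adjusted p = 0.027) and fell by 0.94 from 16 to 32 hr (0.17, adjusted p = 0.034), and Fgf17 fell by 1.19 from 4 to 24 hr (0.37, adjusted p = 0.037, all edgeR). Fgfbp1, the other FGF-binding gene tested, was at -0.21 (adjusted p = 0.32). Fgfrl1 was at 1.29 between 16 and 32 hr (standard error 0.27, adjusted p = 0.053, edgeR), which did not pass. Over the 8 libraries Fgfrl1 was also the second nearest gene to Nuak1 (distance 0.80). When the share of reads on Lars2, Gm23935, and ENSMUSG00000093077 was added as a covariate, which was chosen after seeing the data, none of the 11 calls between 4 and 24 hr passed, and 7 of the 63 genes rose at an unadjusted p-value under 0.05. Each gene kept its direction, but the log2 fold change was then 0.42 for Mark4, 0.43 for Greb1, 0.12 for Fgfr1, 1.28 for Fbn2, -0.38 for Cth, and -0.57 for Fgf17. This share was lowest at 4 hr and so overlaps with time. The calls of Fgf17 and Fgfr1 from 4 to 24 hr also ended with offsets for GC content and length and without the treatment term, and that of Fgfr1 from 16 to 32 hr without the treatment term.

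**Figure D4:**
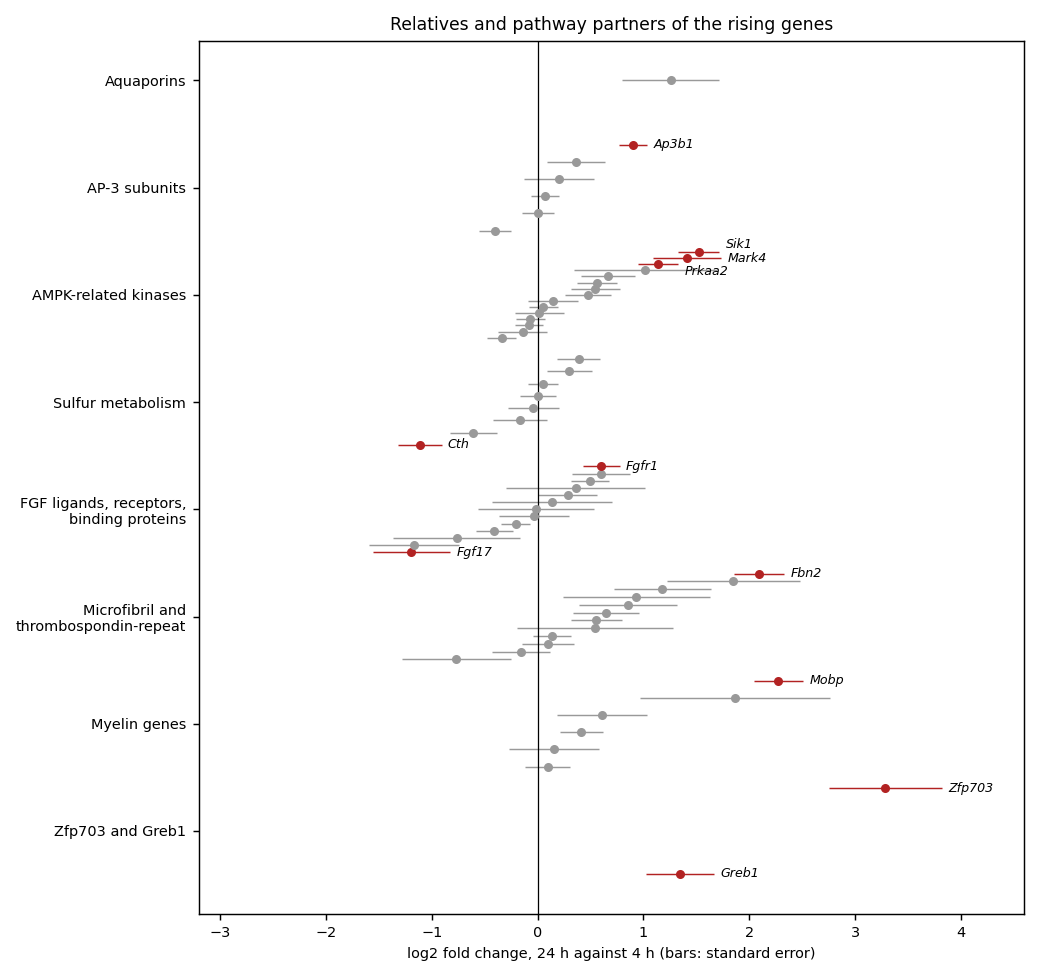
Log2 fold change from 4 to 24 hr in the additive edgeR model (horizontal axis, bars for the standard error) for the 63 relatives and pathway partners that passed the filter, grouped by family, with genes past an adjusted p of 0.05 in red and named. There are 9 red points above 0 and 2, Cth and Fgf17, below it.

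The nearest gene on each side of each of the 10 on the chromosome that passed the filter (20 genes, in the order of GENCODE M21) was tested in the same way, and 2 rose, 1 fell, and 17 did not pass between 4 and 24 hr, where 11.5% of all genes tested rose and 8.98% fell. Vps8, next to 2510009E07Rik, rose by 0.76 (standard error 0.15, adjusted p = 0.0050), Zfp236, next to Mbp, rose by 0.72 (0.17, adjusted p = 0.012), and 1500009L16Rik, next to Nuak1, fell by 1.11 (0.21, adjusted p = 0.0039, all edgeR). With the same covariate none of these 3 calls passed, and that of Zfp236 also ended without the treatment term. Between 16 and 32 hr 0 of the 20 passed, with 1 higher and 2 lower at an unadjusted p-value under 0.05, and DESeq2 called 0.

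The higher one was Tst, which encodes the related sulfurtransferase rhodanese and starts next to Mpst on the opposite strand, with 508 bases between the annotated genes. Its log2 fold change was -0.17 between 4 and 24 hr (adjusted p = 0.68) and 0.64 between 16 and 32 hr (standard error 0.26, adjusted p = 0.28, edgeR). The latter average came mainly from the vitC libraries, where Tst went from 9.96 to 21.1 CPM between 16 and 32 hr. In 2i, where Mpst increased 3.04-fold between these times, Tst went from 12.3 to 13.97 CPM. The strand setting of the counting is not given in the sources used here, so that reads of one gene may have been counted for the other where their transcripts reach beyond the annotation.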

How the data were processed

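RNA was sequenced from 8 libraries of E14 ESCs. Per the labels, ribosomal RNA was depleted and TruSeq libraries were sequenced single-end. The submitters' processing notes name GSNAP, HTSeq, and the builds NCBIM37 and mm9, and the authors deposited raw counts per Ensembl gene, without normalization. The annotation release and strand setting are not given in the sources used here. Times and treatments came from the labels, and the lane from the deposited files' names.

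Symbols, gene order, and merged exon lengths came from GENCODE M21 (32604 of 37263 identifiers found). Its coordinates are of another build than the counts and are not reported. The 14931 genes that reached 1 CPM in 2 or more libraries were tested. edgeR 4.0.16 in R 4.3.3 was used (TMM, quasi-likelihood test, Benjamini-Hochberg, threshold 0.05) with treatment and time as factors (3 residual degrees of freedom), or with a linear change of the vitC effect with hours added (2 residual degrees of freedom). The quasi-likelihood test moderates the error of each gene toward a trend over all genes, so its p-values do not rest on these residual degrees of freedom alone. CPM were scaled by TMM. Ratios have exact binomial (Clopper-Pearson) 95% intervals, and ranks, distances, and shares of all genes by ratio used a prior count of 2. A floor of 3 counts corresponds to 0.158 to 0.644 CPM. Scripts were tested on simulated data.

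Genes named were the 10 genes, the listed relatives and partners, the nearest tested gene on each side, and, for each of the 10, the 2 protein-coding genes at the smallest distance. The genes, lists, motifs, and tests were chosen with earlier results of these data known. Lists of other cell types were also counted. Where the text does not give them, the summed levels in 2i and with vitC were 206 to 376 and 212 to 347 CPM for neural markers, 8.04 to 13.3 and 5.23 to 16.9 for primitive endoderm, 10.4 to 24.4 and 9.18 to 22.0 for mesoderm, 109.8 to 365 and 92.3 to 670 for fibroblasts (mainly Col1a1 and Col1a2, lowest at 4 hr), 6.02 to 16.6 and 5.51 to 19.6 for trophoblast, and 4.58 to 10.7 and 8.07 to 12.4 for keratinocytes. Their part in the results was not tested. For 1 gene of these cell type lists no value is reported here. Alternatives were other scalings and filters, DESeq2 1.42.0, offsets for GC content and length, removal of abundant features or their share as a covariate, models without time or treatment, and omission of each time.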

Additional observations from a re-analysis of the deposited data

Results flagged for a closer look

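The ratio of vitC to 2i had counting intervals on opposite sides of 1 at different times for 3 genes. The difference between these times was not tested with replicate cultures, and the linear test of change with hours did not pass for any of the 3. Greb1l was at a ratio of 1.18 at 24 hr (95% interval of the counts 1.06 to 1.30) and 0.882 at 32 hr (0.822 to 0.947). Aqp3 was at 0.843 at 16 hr (0.777 to 0.914) and 1.23 at 24 hr (1.12 to 1.35). 2510009E07Rik was at 0.731 at 4 hr (0.594 to 0.897) and 1.17 at 32 hr (1.05 to 1.30).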

How the results depend on the processing

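None of the 10 genes passed the vitC test under any of 14 alternatives, with 0 called when each time was left out in turn (0 to 0), while the number of calls over all genes ranged from 0 to 690, against 25. The log2 fold change of Fgfbp3 stayed between -0.52 and -0.32 (adjusted p = 0.27 to 1.00) and that of Mpst between -0.29 and -0.16. The estimates of Zfp503, Greb1l, Aqp3, and 2510009E07Rik changed sign between settings, none of them past the threshold. The 8 early and 2 late genes were the same under both alternatives, of which the highest of 24 and 32 hr changed the end point only for 2510009E07Rik. No paired analysis was possible because no replicate number links libraries across groups, with 1 library for each combination, beyond the pairing of vitC with 2i by time that the vitC test already holds.

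For the relatives and partners, calls from 4 to 24 hr that fell (2) became 4 with offsets for GC content and length and 1 without the treatment term. From 16 to 32 hr the number that rose (0) was 1 in DESeq2 and 2 without a filter, and the number that fell (1) was 3 without a filter and 0 without the treatment term. Of the neighbours, 1 rather than 2 rose from 4 to 24 hr without the treatment term. With the share of abundant features as a covariate, 0 relatives rose, 0 fell, 0 neighbours rose, and 0 fell from 4 to 24 hr, with 7, 0, 0, and 0 at an unadjusted p-value under 0.05 in edgeR. Under other alternatives Fgf17, Fgfr1, and Zfp236 also lost calls, and the cause was not tested.

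The vitC libraries at 16 and 24 hr were the shallowest, and the 8 to 31 counts of Zfp503 and Fgfbp3 at 4 hr limit their ratios.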
